A study of Rattus norvegicus with 84 samples.

Results

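The lysosome is the acidic compartment in which a cell breaks down proteins, glycans, glycolipids and lipids. Its soluble enzymes are made in the endoplasmic reticulum, tagged with mannose 6-phosphate or carried by sorting receptors, and work inside an organelle whose membrane holds heavily glycosylated structural proteins, transporters and ion channels. In the brain every cell type has lysosomes, microglia are especially rich in cathepsins, and the inherited loss of many of these genes causes lysosomal storage disease with degeneration of neurons. Here 41 genes of this system are described: 11 proteases, 12 glycosidases, 2 sulfatases, 4 lipid and thioester hydrolases, 3 luminal cofactors and 9 membrane proteins. They were taken by gene symbol from the deposited tables of normalized counts. All 41 were present among the 15553 genes of the CA1 table, the 15706 of the CA3 table and the 15374 of the dentate gyrus (DG) table, and all 41 passed the filter on low values in each.

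The rats were male F344, an inbred strain, at 5 months (young, 12 rats) or 12 months (middle-aged, 16 rats). No genetic change or treatment is given in the labels, and the series title places the study in the question of how subregion transcription relates to spatial pattern separation, the ability to keep similar places apart in memory, as rats age. Polyadenylated RNA of CA1, CA3 and DG, each dissected from 1 hemisphere of every rat, was sequenced as 84 libraries, 28 for each subregion. Such tissue pieces mix neurons, glia and vessels, so that a change in the number of cells of a type and a change in RNA per cell cannot be told apart.

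Depth ran from 14.4 M to 23.4 M gene reads a library (M, mega). The animal numbers in the titles form 2 runs, which no label calls a batch. The lower run holds 6 young and 10 middle-aged rats and the higher run 6 young and 6 middle-aged rats. Age changes within each run are given for some of the genes only. In the higher run the young and the middle-aged rats hold separate stretches of numbers with a gap between them, so that age and any other difference between those stretches cannot be told apart there. All 10 listed markers each of neurons, astrocytes and mature oligodendrocytes were in every table, and no marker in a table, of 9 cell types listed, was at 0 in all 28 libraries. One rat stood apart before any age comparison. In middle-aged replicate 10, the 17 of 20 listed microglia markers in the tables summed to 49350 normalized counts in CA1, against 14937 in the next library. The sum was 36354 in CA3, with 15374 next, and 14169 in DG, with 10583 next. The summed choroid plexus markers (4 of 6 in the CA1 and DG tables, 6 of 6 in CA3) ran from 43 to 1766 in young and 18 to 517 in middle-aged CA1, from 157 to 6513 and 132 to 19850 in CA3, and from 4 to 7356 and 21 to 2980 in DG. They exceeded 1000 in 3 libraries of CA1 (all young), 5 of CA3 (2 young, 3 middle-aged) and 2 of DG (1 of each age). The median share of reads from the 13 mitochondrial genes was 7.96% in young and 11.2% in middle-aged CA1, 7.76% and 8.51% in CA3, and 6.6% and 7.57% in DG. The gap between the ages lay mostly in the higher run. In CA1 the medians were 6.62% and 12.8% there, against 10.5% and 10.8% in the lower run. In CA3 they were 6.17% and 8.78%, against 8.77% and 8.51%, and in DG 5.6% and 8.77%, against 6.81% and 7.3%. The part of microglial, choroid plexus or mitochondrial RNA in the results below was not tested.

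Between 5 and 12 months a few lysosomal genes rose in all 3 subregions, a cathepsin (Ctss), a membrane protein (Lamp2) and a cholesterol carrier (Npc2), while a sialidase (Neu1), a cofactor precursor (Psap), a sphingomyelinase (Smpd1) and a calcium channel (Mcoln1) fell in 1 or 2 of them. In CA1, 7 of 41 genes were higher at 12 months (Asah1, Cd68, Ctsl, Ctss, Lamp2, Npc2 and Tpp1), where 12.4% of all 14685 genes tested were called higher. One, Neu1, was lower, where 12.8% of all genes were. In CA3, 9 were higher (Ctsh, Ctss, Ctsz, Fuca1, Lamp2, Manba, Naglu, Npc2 and Tpp1) against 10.9% of all 14893 genes, and 2 were lower (Psap and Smpd1) against 10.8%. In DG, 5 were higher (Asah1, Ctss, Lamp2, Lyz2 and Npc2) and 7 were lower (Gaa, Glb1, Lamp1, Mcoln1, Neu1, Psap and Smpd1), where 18.5% of all 14526 genes were called in each direction. As shares of the 41, the higher genes were 17.1% in CA1, 22% in CA3 and 12.2% in DG, above the share of all genes in CA1 and CA3 and below it in DG. The lower genes were 2.44%, 4.88% and 17.1%, below that of all genes in each. The median change of the 41 was 0.10 in CA1, 0.07 in CA3 and -0.03 in DG on the log2 scale. Without middle-aged replicate 10 the medians were 0.05, 0.06 and -0.03. A gene was called when limma's adjusted p over all genes was below 0.05, and changes are differences of log2(normalized count + 1), which understate those of low genes. The libraries rich in choroid plexus markers were also left out, a setting chosen after seeing the data. In CA1 4 genes were then called higher and 0 lower (Cd68, Npc2, Tpp1 and Neu1 lost), against 7.99% and 8.83% of all genes. In CA3 5 and 1 were (Ctsh, Ctsz, Fuca1, Tpp1 and Smpd1 lost), against 6.72% and 6.83%. In DG 6 and 9 were (Npc2 lost, Ctsc and Npc1 gained as higher, Ctsd and Hexa as lower), against 20.9% each.

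**Figure D1:**
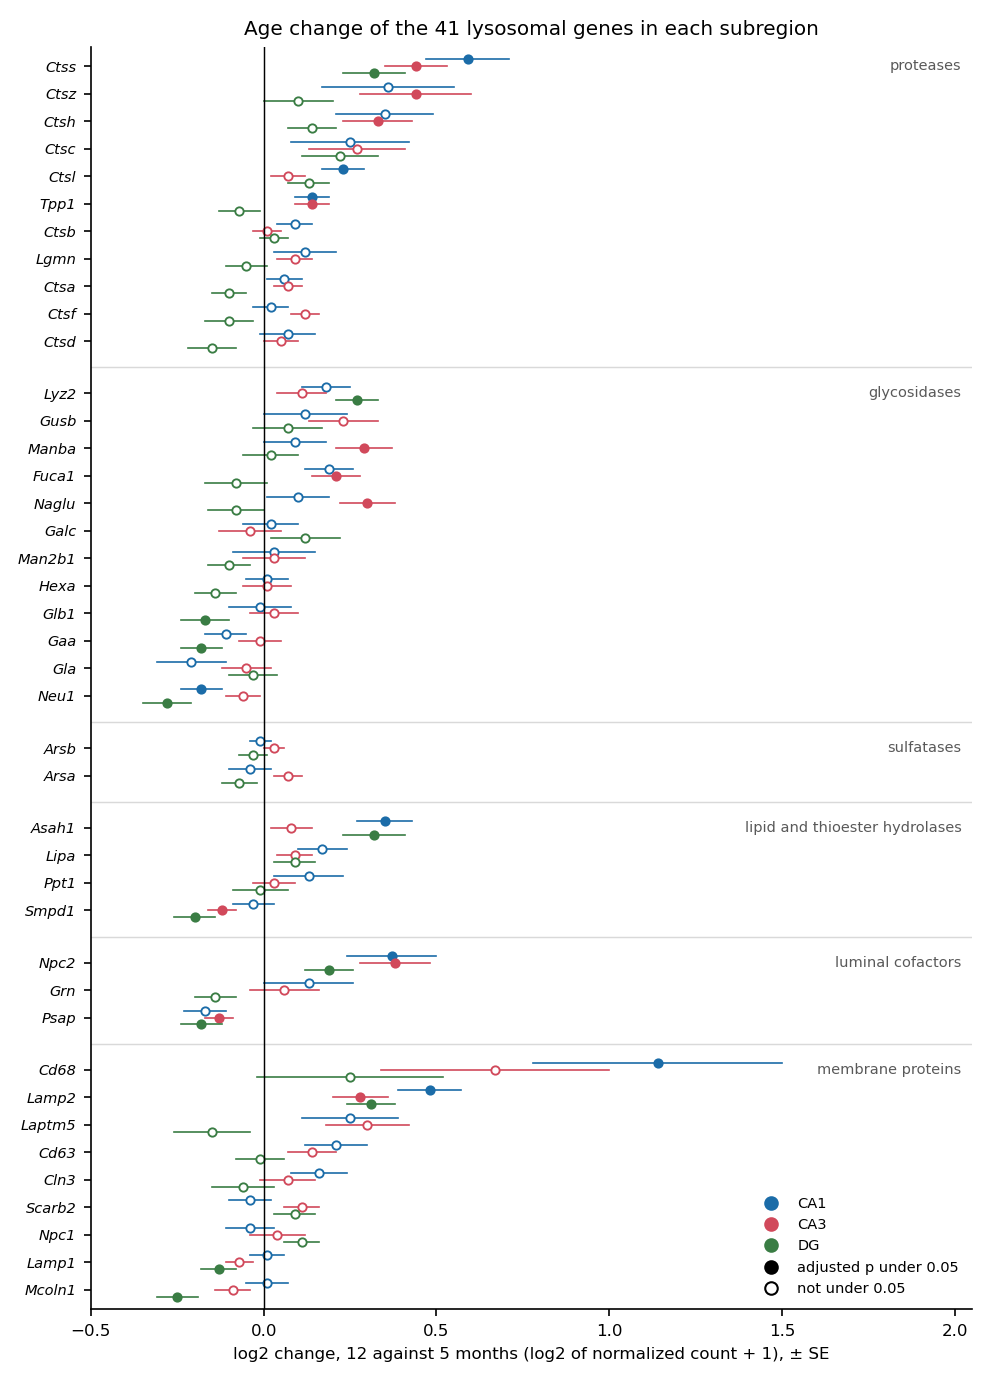
Age change of each of the 41 genes, ordered by function, as log2 difference between 12 and 5 months (horizontal axis) with its standard error as a line, in CA1, CA3 and DG. Filled points are called at an adjusted p below 0.05. Ctss, Lamp2 and Npc2 are filled and to the right of 0 in all 3 subregions, and the filled points to the left of 0 are mostly those of DG.

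Among the 11 proteases every change called over all rats was an increase. In CA1 3 were called (27.3%, against 12.4% of all genes), in CA3 4 (36.4%, against 10.9%) and in DG 1 (9.09%, against 18.5%). Within the higher run alone 2 proteases were called higher in DG and 3 lower (Ctsa, Ctsd and Lgmn). Without the libraries rich in choroid plexus markers, Ctsd was called lower in DG, at -0.17 (limma adjusted p = 0.03), and Ctsc higher. Cathepsin S (Ctss), a cysteine protease of microglia and other antigen-presenting cells that works also near neutral pH, was called in all 3. In CA1 its normalized count ran from 1391 through a median of 1490 to 1901 in young rats and from 1822 through 2165 to 6774 in middle-aged rats. All 16 middle-aged libraries lay above the young median and 13 above the highest young library, and the 6774 belonged to replicate 10, with 2490 next. The change was 0.59 (SE 0.12, adjusted p = 0.00178), and 0.48 without replicate 10. In CA3 the young values were 1313, 1506 and 1879 (lowest, median, highest) and the middle-aged ones 1507, 2011 and 4324, a change of 0.44 (SE 0.09, adjusted p = 0.00156). In DG they were 956, 1149 and 1996 against 1255, 1436 and 2115, a change of 0.32 (SE 0.09, adjusted p = 0.0063). There 1 middle-aged library was above the highest young one, so that the ranges overlapped more than in CA1.

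Cathepsin L (Ctsl), a broad endopeptidase, was called in CA1, where young libraries held 982 to 1396 with a median of 1235 and middle-aged ones 1099 to 1744 with a median of 1394. Of the middle-aged libraries 8 of 16 exceeded every young library, and the change was 0.23 (SE 0.06, adjusted p = 0.0121). In CA3 and DG the Ctsl changes of 0.07 and 0.13 were not called. Cathepsin H (Ctsh), an aminopeptidase, and cathepsin Z (Ctsz), a carboxypeptidase, rose in CA3 by 0.33 (SE 0.10) and 0.44 (SE 0.16). In CA1 the Ctsh change of 0.35 was not called with replicate 10 (adjusted p = 0.0633), and was 0.24 and called without it (adjusted p = 0.0378). Tripeptidyl peptidase 1 (Tpp1), lost in a form of neuronal ceroid lipofuscinosis, rose by 0.14 (SE 0.05) in both CA1 and CA3. Both Tpp1 calls were lost without middle-aged replicate 10, at adjusted p values of 0.0732 and 0.0546. The other 6 proteases, Ctsa, Ctsb, Ctsc, Ctsd, Ctsf and Lgmn, were called in none of the 3 subregions over all rats.

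The 12 glycosidases, which strip sugars from glycoproteins, glycogen and glycolipids, moved in both directions. Beta-mannosidase (Manba) and alpha-N-acetylglucosaminidase (Naglu), which acts on heparan sulfate, rose in CA3, together with alpha-L-fucosidase (Fuca1), whose change was 0.21 (SE 0.07, adjusted p = 0.0213). Naglu held 148, 176 and 233 normalized counts in young CA3 and 191, 219 and 287 in middle-aged CA3, so that all 16 middle-aged libraries lay above the young median. Its change there was 0.30 (SE 0.08, adjusted p = 0.00629). Manba held 171, 241 and 296 in young CA3 and 237, 280 and 412 in middle-aged CA3, with 15 of 16 above the young median, a change of 0.29 (SE 0.08, adjusted p = 0.0085). Neither was called in CA1 or DG. Lysozyme (Lyz2), which cleaves bacterial cell walls and marks myeloid cells, rose in DG, from 349, 432 and 530 to 442, 531 and 606, a change of 0.27 (SE 0.06, adjusted p = 0.00178). All 16 middle-aged libraries were above the young median and 8 were above every young library. The rat genome has a second lysozyme gene, Lyc2, for which Lyz2 is also used as a name, so that reads of the pair may be shared.

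The glycosidases lower with age in DG were 3 of the 12 (25%, against 18.5% of all genes), Neu1, Gaa and Glb1. Sialidase Neu1 removes terminal sialic acids and acts in a complex with the protective protein Ctsa and the beta-galactosidase Glb1. In DG it held 703, 775 and 957 in young and 517, 680 and 793 in middle-aged libraries, with 11 of 16 below the lowest young library and a change of -0.28 (SE 0.07, adjusted p = 0.0022). In CA1 it held 573, 762 and 827 in young and 508, 662 and 754 in middle-aged libraries, with all 16 below the young median, a change of -0.18 (SE 0.06, adjusted p = 0.0275). The CA1 call was lost in 1 of the 28 fits that left out a rat, that without young replicate 8 (adjusted p = 0.0508). Ctsa did not reach the threshold in any subregion, and Glb1 was called in DG only, at -0.17 (SE 0.07, adjusted p = 0.0493). Acid alpha-glucosidase (Gaa), which degrades glycogen, held 5230, 6145 and 6692 in young DG and 4393, 5348 and 6718 in middle-aged DG, a change of -0.18 (SE 0.06, adjusted p = 0.016). The middle-aged libraries lay below the young median with 1 exception, replicate 6, the middle-aged DG library rich in choroid plexus markers. Galc, Gla, Gusb, Hexa and Man2b1 were called in no subregion, nor were the sulfatases Arsa and Arsb, whose changes ran from -0.07 to 0.07.

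Of the 4 lipid and thioester hydrolases, the acid ceramidase and the acid sphingomyelinase changed in opposite directions. Acid ceramidase (Asah1) turns ceramide into sphingosine. It rose in CA1 from 295, 427 and 541 to 384, 538 and 657, a change of 0.35 (SE 0.08, adjusted p = 0.00401), and in DG from 336, 417 and 507 to 344, 509 and 702, a change of 0.32 (SE 0.09, adjusted p = 0.00681). In CA1 8 and in DG 9 of the 16 middle-aged libraries exceeded every young one. In CA3 the ranges of 462 to 666 and 501 to 721 overlapped and the change of 0.08 was not called. Acid sphingomyelinase (Smpd1), which makes ceramide from sphingomyelin, fell in DG from 1740, 2096 and 2607 to 1407, 1777 and 2301. Its change there was -0.20 (SE 0.06, adjusted p = 0.0113), with 15 of 16 middle-aged libraries below the young median. In CA3 it went from 2032, 2334 and 2629 to 1834, 2081 and 2456, a change of -0.12 (SE 0.04, adjusted p = 0.049). The CA3 call was lost in 19 of the 28 fits that left out a rat, young replicate 1 and middle-aged replicate 1 among them, with adjusted p values up to 0.0951. Lysosomal acid lipase (Lipa), which frees cholesterol from its esters, and the palmitoyl thioesterase Ppt1 were called in no single subregion.

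The 3 luminal cofactors split likewise. Npc2 binds cholesterol in the lumen and hands it to the membrane protein Npc1. It held 1484, 1609 and 1927 in young CA1 and 1501, 2048 and 6587 in middle-aged CA1, a change of 0.37 (SE 0.13, adjusted p = 0.0354). In CA3 it held 1524, 1676 and 1849 against 1706, 1993 and 5131, with 13 of 16 above every young library and a change of 0.38 (SE 0.10, adjusted p = 0.00987). In DG it held 1175, 1285 and 1617 against 1171, 1448 and 2179, a change of 0.19 (SE 0.07, adjusted p = 0.0307). Replicate 10 was the highest in each, and without it the changes were 0.27, 0.30 and 0.16, all still called. The Npc2 call in CA1 was lost without young replicate 1, 3 or 8 and that in DG without young replicate 8 or 9, with adjusted p values up to 0.0545. Npc1 itself, which exports cholesterol from the lysosome, was called in no subregion.

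Prosaposin (Psap) is the precursor of the saposins, small proteins that present glycolipids to their hydrolases. It fell in CA3 from 27660, 29548 and 32418 to 23461, 27107 and 32168, with 11 of 16 middle-aged libraries below the lowest young one and a change of -0.13 (SE 0.04, adjusted p = 0.0163). In DG it went from 24042, 29044 and 32201 to 21479, 24912 and 33284, a change of -0.18 (SE 0.06, adjusted p = 0.016). In CA1 the values were 22465, 27506 and 31637 against 20105, 23868 and 32400, and the change of -0.17 (SE 0.06, adjusted p = 0.0542) missed the threshold. Without replicate 10, the highest middle-aged library, it was -0.19 and called (adjusted p = 0.0194). The CA1 value differed between the runs. The medians were 24664 in young and 25638 in middle-aged rats of the lower run, a change of 0.05, and 29951 and 22183 in the higher run, a change of -0.42. In CA3 the run medians were 29548 and 27638, and 30208 and 25779, and in DG 27585 and 26162, and 29355 and 23565, so that Psap was lower with age in both runs there. Progranulin (Grn), which is cut into granulins in the lysosome, was not called, with changes of 0.13, 0.06 and -0.14. Its highest library in CA1 was that of replicate 10, at 3707 with 1492 next. Without that rat the Grn changes were 0.03, -0.02 and -0.16, and the one in DG was called lower (SE 0.06, adjusted p = 0.0355).

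**Figure D2:**
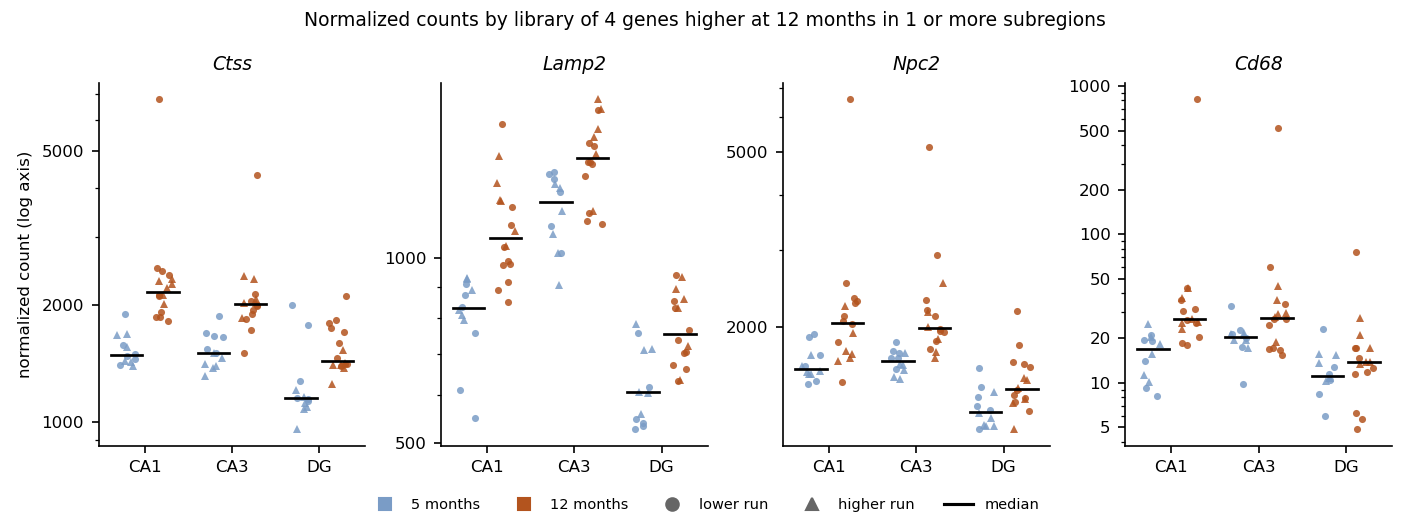
Normalized counts (log axis) of Ctss, Lamp2, Npc2 and Cd68 in every library, by subregion and age, with circles for the lower and triangles for the higher run of animal numbers and a bar at each median. In CA1 the middle-aged Ctss libraries run from 1822 to 6774 and the young ones from 1391 to 1901, and the single high point in Ctss, Npc2 and Cd68 of CA1 and CA3 is middle-aged replicate 10.

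Of the 9 membrane proteins, Lamp2 rose in all 3 subregions and its relative Lamp1 did not. Both are the abundant glycoproteins that line the lysosomal membrane, and a splice form of Lamp2 is the receptor of chaperone-mediated autophagy. Lamp2 held 550, 830 and 930 in young CA1 and 850, 1078 and 1652 in middle-aged CA1, with 13 of 16 middle-aged libraries above every young one, a change of 0.48 (SE 0.09, adjusted p = 0.00109). In CA3 it held 905, 1237 and 1384 against 1137, 1458 and 1813, a change of 0.28 (SE 0.08, adjusted p = 0.00812), and 11 of 16 exceeded every young library. In DG it held 527, 606 and 783 against 632, 752 and 940, a change of 0.31 (SE 0.07, adjusted p = 0.00245), with all 16 above the young median. None of the 28 fits without a rat ended a Lamp2 call. Lamp1 was called in DG in the other direction, at -0.13 (SE 0.05, adjusted p = 0.0451), with changes of 0.01 in CA1 and -0.07 in CA3.

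Cd68, a lysosomal glycoprotein of microglia and macrophages, had the largest change among the 41 genes, on few reads. In CA1 it held 8.18, 17.0 and 24.8 normalized counts in young rats and 18.0, 26.7 and 810 in middle-aged rats, with 43.4 next to the 810 of replicate 10. In CA1 12 of 16 middle-aged libraries were above every young one. The CA1 change was 1.14 (SE 0.36, adjusted p = 0.0208), and 0.84 (SE 0.18, adjusted p = 0.0026) without replicate 10. In CA3 Cd68 held 9.86, 20.5 and 32.9 against 15.5, 27.5 and 518, with 60.7 next to the 518 of replicate 10. The CA3 change of 0.67 was not called by limma (adjusted p = 0.144). The quasi-likelihood test of edgeR put it at 1.54 (adjusted p = 0.0234), and was not run without replicate 10. Without replicate 10 the CA3 change was 0.40 and that in DG 0.10, against 0.25 with it, neither called by limma. In DG the Cd68 values were 5.97, 11.1 and 23.0 against 4.85, 13.7 and 76.2, and were not called. Mcoln1, the calcium channel of the lysosomal membrane, held 1222, 1415 and 1738 in young DG and 1022, 1187 and 1558 in middle-aged DG. Of the middle-aged DG libraries 10 of 16 were below every young one, and the change was -0.25 (SE 0.06, adjusted p = 0.00163). In CA1 and CA3 the Mcoln1 changes were 0.01 and -0.09. Cd63, Cln3, Laptm5, Npc1 and Scarb2 were called in no subregion.

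**Figure D3:**
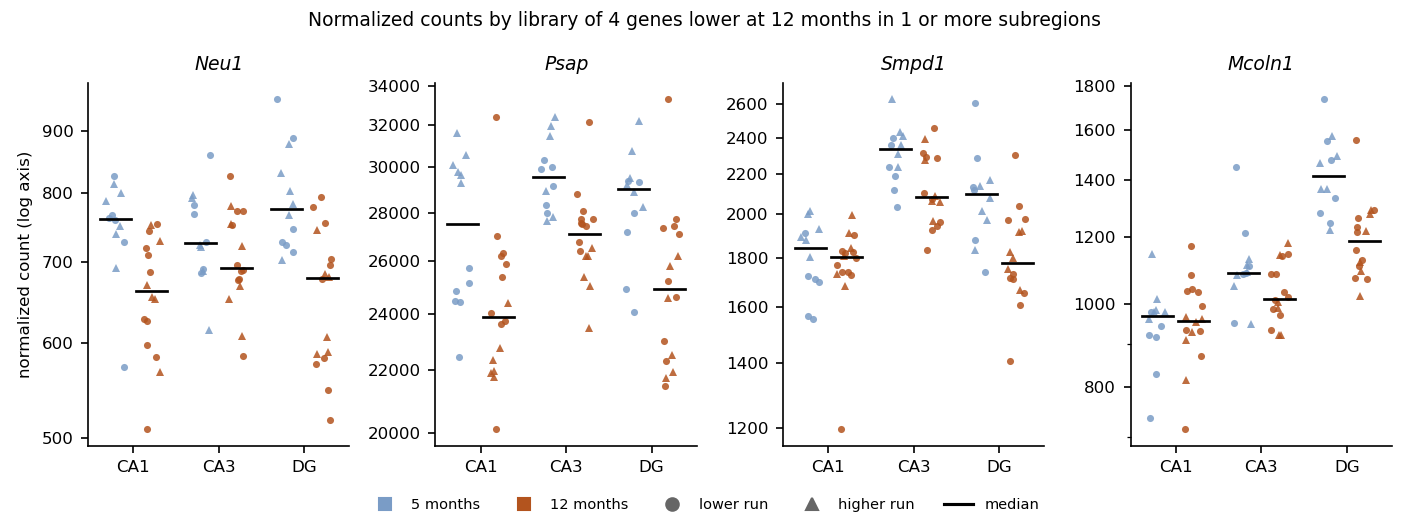
Normalized counts (log axis) of Neu1, Psap, Smpd1 and Mcoln1 in every library, by subregion and age, with circles for the lower and triangles for the higher run and a bar at each median. In DG 11 of 16 middle-aged libraries of Neu1 and 10 of 16 of Mcoln1 lie below every young library, and young CA1 libraries of Psap separate by run.

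The genes not called were 33, 30 and 29 of the 41. The 33 of CA1 had changes from -0.21 to 0.36, 7 of them with an unadjusted p below 0.05. The 30 of CA3 ran from -0.09 to 0.67, with 8 such genes, and the 29 of DG from -0.15 to 0.25, with 6. The share of all uncalled genes with an unadjusted p below 0.05 is not given.

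Averaged over the 3 subregions of each rat, 10 of the 41 genes were higher at 12 months and 5 lower, where 25.4% and 24.6% of the 14291 genes tested were. The largest increases were those of Cd68 (0.69, SE 0.28, and 0.44, SE 0.13, without replicate 10), Ctss (0.45, SE 0.09) and Lamp2 (0.36, SE 0.06). Ctsh, Ctsl, Lyz2, Manba, Lipa, Asah1 and Npc2 were the others, from 0.12 to 0.32. The 5 lower genes were Neu1 (-0.17, SE 0.04), Psap (-0.16, SE 0.04), Smpd1 (-0.12, SE 0.03), Mcoln1 (-0.11, SE 0.03) and Gaa (-0.10, SE 0.04). Cd68 lost its call in 14 of the 28 fits without a rat and Gaa in 17, young replicate 3 for both, and Manba in 4 (young replicates 1, 8, 9 and 12). Without middle-aged replicate 10 all 15 calls were kept and Ctsc and Ctsz were added to the higher genes and Glb1 and Lamp1 to the lower. For the average, every rat with a library rich in choroid plexus markers in any subregion was then left out, 8 rats, 4 young and 4 middle-aged. In that smaller set 12 of the 15 calls were kept, and those of Manba, Lipa and Cd68 were lost. With Ctsc added, 8 genes were then higher and 5 lower, where 22.1% and 21.4% of all genes were.

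Whether the age change itself differed between subregions was tested within rats. Between DG and CA1 no gene of the 41 was called by limma, where 0.609% of 14291 genes were. Between CA1 and CA3 limma called none of the 41 and 0% of all genes. An unadjusted limma p below 0.05 was found for 10 of the 41 between DG and CA1, 2 between CA1 and CA3 and 13 between DG and CA3. The share of all genes at that unadjusted threshold is not given, so these counts are not shown to be particular to the 41. Between DG and CA3, where limma called 2.76% of all genes, Naglu was called. Its age change was lower in DG than in CA3 by 0.38 on the log2 scale (a difference of -0.38, SE 0.10, limma adjusted p = 0.0425). Naglu held 141, 180 and 228 in young DG and 146, 165 and 205 in middle-aged DG, where 12 of 16 lay below the young median. The Naglu call was lost without middle-aged replicate 10, at -0.36 (adjusted p = 0.061). The lower calls of Mcoln1 and Glb1 in DG alone, and the higher calls of Ctsl in CA1 alone, are therefore not shown to be differences between subregions.

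More of the 41 genes were called within the higher run of animal numbers than within the lower. Every called gene had the same sign in both runs, which held for 8 of 8 genes in CA1, 11 of 11 in CA3, 12 of 12 in DG and 15 of 15 on average. Tested within the lower run alone, 2, 1, 0 and 4 of those genes were called, and within the higher run alone 4, 9, 11 and 15. Lamp2 was called in both runs in CA1, at 0.49 (adjusted p = 0.0437) and 0.52 (adjusted p = 0.000418). In DG the lower run called 0 genes higher and 0 lower, and the higher run 5 higher and 14 lower. The median change of the 41 genes in DG was 0.04 in the lower and -0.09 in the higher run. Of 85 other genes of the lysosomal pathway tested in DG, described below, the lower run called 0. The higher run called 16 of them higher and 25 lower. The share of all genes called within each run is not given, so these counts are not shown to be particular to the 41. Gaa in DG changed by -0.03 in the lower and by -0.35 in the higher run, Glb1 by -0.07 and -0.33, and Lamp1 by -0.01 and -0.24. Manba in CA3 changed by 0.12 in the lower and 0.46 in the higher run. Neu1 and Mcoln1 in DG had like values in both, -0.26 and -0.29, and -0.25 and -0.27. Differences between the runs were not tested.

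**Figure D4:**
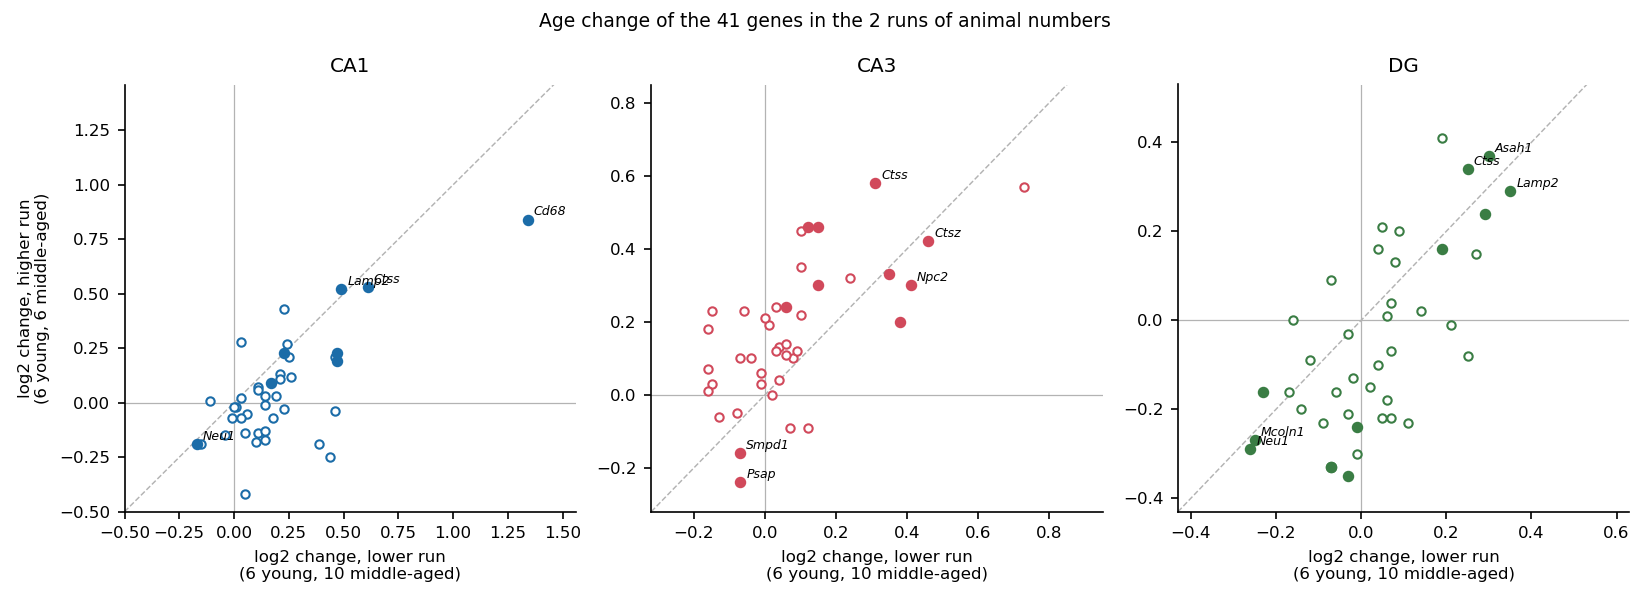
Age change (log2) of the 41 genes in the lower run (horizontal axis) and the higher run (vertical axis) in CA1, CA3 and DG, with the dashed line where both are equal. Filled points are genes called over all 28 rats, with up to 5 named in a panel, and all of them lie on the same side of 0 in both runs, while in DG most open points lie below the horizontal line at 0.

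Lysosomal genes share regulation by Tfeb and its relatives of the MiT/TFE family, which bind the CLEAR element. The inner palindrome of that element, TCACGTGA, was searched for here, and its core CACGTG is an E-box. RefSeq promoter windows on GRCr8, from 250 bases before to 50 after the gene's start, were matched by symbol for 34 of the 41 genes. The windows were searched for exact matches on both strands. TCACGTGA was in 5 of the 34 windows (14.7%), against 0.867% of all 27457 windows of that length, and CACGTG, which lies inside it, in 9 (26.5%) against 6.65%. GAGGAAGT, a sequence bound by the myeloid factor PU.1, was in 3 (Ctsc, Ctss and Gla), against 2.44% of all windows. Tfeb changed by -0.46 with age in CA1, where the 5 genes with the palindrome TCACGTGA changed by 0.01 to 0.16 and none was called. In DG Tfeb changed by -0.43, and of the 5 genes only Mcoln1 and Lamp1 were called lower. A part of Tfeb in the age changes of these genes was not tested. For each of the 5 genes 1 stretch with the palindrome was taken. Each is given on the strand of its gene, 5′ to 3′, with TCACGTGA in capitals.
Mcoln1 (chr12:6358250-6358279, + strand): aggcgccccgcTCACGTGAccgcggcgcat
Lamp1 (chr16:83075084-83075113, - strand): cgcggcactgtTCACGTGAcaggcgctgcc
Ctsd (chr1:206968814-206968843, - strand): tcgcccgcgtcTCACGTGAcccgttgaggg
Galc (chr6:123245562-123245591, - strand): gggtgccacagTCACGTGAcccgcacaatg
Cln3 (chr1:190597950-190597979, - strand): cacgggtactgTCACGTGAtccccaacctg

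The palindrome began 3 bases after the start of Mcoln1 and 11, 21, 39 and 39 bases before the starts of Ctsd, Galc, Cln3 and Lamp1. Lamp1 held a second copy 66 bases before its start. Of these 5 genes, Mcoln1 and Lamp1 were lower with age in DG, as given above. Ctsd, an aspartic protease, had changes of 0.07 in CA1, 0.05 in CA3 and -0.15 in DG, Galc, which degrades galactosylceramide, 0.02, -0.04 and 0.12, and Cln3, a membrane protein lost in juvenile ceroid lipofuscinosis, 0.16, 0.07 and -0.06. None of those 9 values was called. A match describes the window's letters only.

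Among 16 listed MiT/TFE factors and regulators, 12 were tested on average over subregions. Of these, 4 were higher (33.3%, against 25.4% of all genes) and 3 lower (25%, against 24.6%). Tfeb itself was lower in CA1 (-0.46, adjusted p = 0.00409), in DG (-0.43, adjusted p = 0.00153) and on average (-0.32, SE 0.06, adjusted p = 0.000201). In CA3 its change of -0.07 was not called (adjusted p = 0.592). For Tfeb in DG the lower run gave -0.17 and the higher run -0.73, and in CA1 they gave -0.47 and -0.45. Lamtor5 and Rragc, parts of the complex that holds the kinase mTORC1 at the lysosome, were higher on average by 0.18 and 0.19.

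The other genes of the pathway were called about as often as all genes on average. Of 99 listed, 85 were tested on average, 19 were higher (22.4%, against 25.4% of all genes) and 22 lower (25.9%, against 24.6%), with a median change of 0.02. In CA1 13 of 85 were higher (15.3%, against 12.4%) and 6 lower (7.06%, against 12.8%). In CA3 11 of 86 were higher (12.8%, against 10.9%) and 9 lower (10.5%, against 10.8%), and in DG 12 of 85 higher (14.1%) and 20 lower (23.5%), against 18.5% each. Among 20 further lysosomal enzymes, 4 were higher and 4 lower. The phospholipases Plbd2 and Pla2g15 were lower by -0.21 and -0.14. Of 19 further membrane proteins, 5 were higher and 4 lower, with Tmem106b at 0.30, Cd164 at 0.19 and Sidt2, a transporter of nucleic acids into the lysosome, at -0.28.

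Counts for the proton pump and the sorting machinery are read against the same shares of all genes, 25.4% higher and 24.6% lower on average. Of 18 subunits and accessory proteins of the vacuolar ATPase, which acidifies the lysosome, 3 were higher (16.7%) and 5 lower (27.8%) on average. The accessory protein Atp6ap2 changed by 0.19, and the membrane subunits Atp6v0c and Atp6v0b by -0.17 and -0.21. Of 13 genes that sort enzymes to the lysosome, 1 was higher (7.69%) and 6 lower (46.2%), with a median of -0.11 and 13 of 13 with the same sign in both runs. Ap1b1, an adaptor subunit at the trans-Golgi network, changed by -0.16 and Cln8, which exports lysosomal enzymes from the endoplasmic reticulum, by -0.19, while the adaptor subunit Ap3b1 changed by 0.18. Cystatins inhibit cysteine cathepsins. Of 3 tested, Cst3 and Cstb were higher on average, by 0.23 (SE 0.05) and 0.40 (SE 0.10). Cst3 changed by 0.44 in CA3 and 0.02 in DG.

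Levels across the subregions were set side by side as CPM, the reads of a gene relative to the library total, scaled over the 84 libraries by trimmed mean of M-values (TMM). Since each deposited table was normalized separately, these levels are a description. The median over 28 rats was highest in CA1 for 19 of the 41 genes, in CA3 for 18 and in DG for 4, and lowest in DG for 28. The ratio of the highest to the lowest subregion median had a median of 1.21 over the 41 genes and of 1.26 over 14264 genes, and passed 1.5 for 6 of the 41 and for 25.2% of the 14264. Npc1 had the largest, 2.37, with medians of 130 CPM in CA3, 88.8 in CA1 and 55.0 in DG, and CA3 was highest in 26 of 28 rats. Lamp2 followed at 1.80, with 72.8 in CA3, 53.0 in CA1 and 40.4 in DG. Cd68 was next at 1.69, with 1.25 in CA1, 1.15 in CA3 and 0.741 in DG, CA1 and CA3 leading in 14 and 13 rats. Lipa was the only one of the 41 that was highest in the same subregion in all 28 rats, with 59.9 in CA3, 42.6 in CA1 and 36.5 in DG. Of all 15109 genes, 1.33%, 1.97% and 3.26% were highest in CA1, CA3 and DG in 28 of 28 rats.

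**Figure D5:**
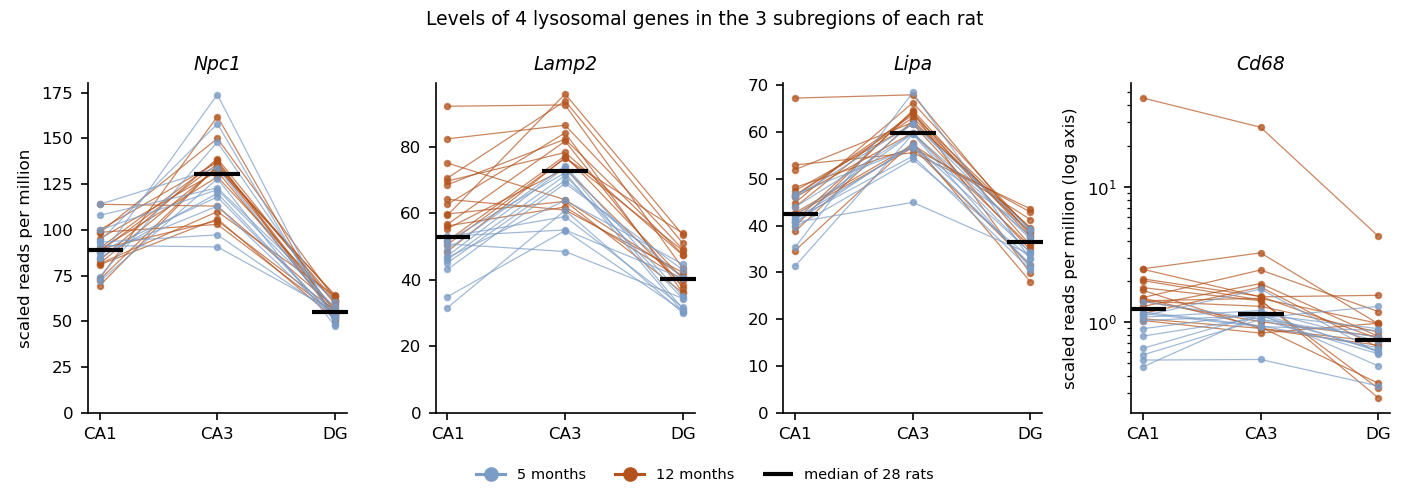
CPM scaled over the 84 libraries for Npc1, Lamp2, Lipa and Cd68 (log axis for Cd68) in CA1, CA3 and DG, with 1 line per rat coloured by age and a bar at the median of 28 rats. Npc1, Lamp2 and Lipa peak in CA3 and are lowest in DG, and Lipa is highest in CA3 in all 28 rats.

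Rats of the same age and run differed from one another, and part of the 41 genes varied over rats with the microglia markers. For each gene the Pearson correlation was taken between its log2 value and the mean of 17 standardised microglia markers, after the means of the 4 groups by age and run were removed, with p values from 100000 permutations within those groups adjusted over all genes. The median correlation of the 41 genes was 0.60 in CA1, 0.56 in CA3 and 0.43 in DG, with a median over all genes of about 0. In CA1 11 of 41 genes were called positive, where 1.76% of all genes were, in CA3 11 where 1.21% were, and in DG 4 where 0.4% were. By Spearman's rank correlation the numbers were 11, 6 and 11, where 2.97%, 0.235% and 2.57% of all genes were called. No gene of the 41 was called negative by Pearson's correlation.

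The 4 genes with the highest median correlation were Ctsz, Npc2, Ctsh and Ctss. Ctsz had r = 0.97 in CA1, 0.97 in CA3 and 0.83 in DG (permutation adjusted p = 0.00587, 0.0165 and 0.0491, Spearman's rho 0.90, 0.88 and 0.65). Npc2 had 0.94, 0.94 and 0.82, with rho of 0.84, 0.84 and 0.76. The value for Ctsh was 0.92, 0.94 and 0.71, and that for Ctss 0.95, 0.89 and 0.76, with Ctsh not called in DG (permutation adjusted p = 0.0887) and Ctss not called in CA3 (permutation adjusted p = 0.0548). Lyz2, Arsb, Mcoln1 and Gla had the lowest medians, -0.39, -0.22, -0.17 and -0.09, and none was called. Replicate 10 was 1 of the 2 rats farthest from the median of the markers in each subregion. Without those 2 rats Ctsz had 0.87, 0.90 and 0.62 and Npc2 0.73, 0.83 and 0.68, whereas Ctsh had 0.43 in DG and Ctss 0.55 in CA3.

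Without replicate 10 alone, the median correlation of the 41 genes was 0.31 in CA1, 0.26 in CA3 and 0.46 in DG. Of the 41, 7, 0 and 12 genes were called positive, where 3.44%, 0% and 3.89% of all genes were. In CA3 no gene of the table was called then (0%), and correlations stayed at 0.87 for Ctsz (permutation adjusted p = 0.0695), 0.80 for Npc2 (permutation adjusted p = 0.125) and 0.75 for Ctsh (permutation adjusted p = 0.0695). Among the 12 young rats alone none of the 41 was called in any subregion, and among the 16 middle-aged 6, 11 and 0 were. The share of all genes called within an age group is not given. The summed microglia markers ran from 9354 to 12279 (median 10732) in young and from 10201 to 49350 (median 11353) in middle-aged CA1. In CA3 they ran from 8662 to 10314 (median 9819) and from 10124 to 36354 (median 10956), and in DG from 7153 to 10583 (median 8213) and from 6982 to 14169 (median 8189). Of 17 microglia markers tested, 6 were higher with age in CA1 (35.3%, against 12.4% of all genes). In CA3 11 were (64.7%, against 10.9%) and in DG 5 (29.4%, against 18.5%), and none was called lower over all rats. Within the lower run alone 2, 0 and 0 were called higher and none lower. Within the higher run alone 6, 11 and 5 were called higher, and 3 were called lower in DG. The share of all genes called within each run is not given. The part of microglia in the age changes of Ctss, Npc2, Ctsh and Ctsz was not tested.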

How the data were processed

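Per the labels' protocols, polyadenylated RNA with spike-in controls was made into Ion Total RNA-seq libraries. Alignment tools and build are listed as STAR 2.5.3a, Partek, DESeq2 3.5 and rn6, per the submitters' processing notes. No source used here states the annotation, the gene filter or the strand of counting. The deposited values are a signal: by their steps, the authors scaled each library's gene counts by 1 factor, separately for each subregion. Low values were whole multiples of 1 step, and whole reads were recovered for 100% of values at the lowest library (within 0.1 of a whole read, up to 1000 reads).

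Testing covered genes reaching 10 in 12 or more of 28 libraries and used limma 3.58.1 (R 4.3.3, empirical Bayes with a trend, 2-sided) on log2(value + 1), with Benjamini-Hochberg adjustment across every gene tested in a table. Means and differences of each rat's 3 log2 values were tested likewise for genes kept in all 3 tables. edgeR 4.0.16 and DESeq2 1.42.0 on the recovered reads were alternatives. Rats are separate animals, and the 3 libraries of a rat were never counted as independent in the main tests. Correlations with microglia markers were adjusted over all genes of a subregion, in place of the members alone. The members and all gene lists were chosen with earlier results of these data known.

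Every member was counted. Full values went to the 5 called members with the smallest p for each subregion and direction, those called in all 3 subregions, those called for a difference, and the 3 largest average changes in each direction. Up to 3 pathway genes a list were named by smallest p on average. One gene that this rule names is not reported here. Stretches with the palindrome were shown for all 5 members that hold it, 4 of them chosen after their values were seen, since 1 was called on average. Of the 41 genes, 15 overlap another gene's span in the RefSeq table of GRCr8, Psap, Neu1, Mcoln1, Lamp1, Glb1, Ctsz and Npc1 among them, and their reads may include those of the other gene. The scripts were tested on simulated data.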

Additional observations from a re-analysis of the deposited data

Results flagged for a closer look

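The age change of Naglu, the alpha-N-acetylglucosaminidase of heparan sulfate degradation, differed between DG and CA3 by a test of the difference within rats, at -0.38 on the log2 scale (SE 0.10, limma adjusted p = 0.0425). The age change was 0.30 in CA3 and -0.08 in DG. The difference was -0.31 in the lower and -0.41 in the higher run of animal numbers, neither called alone.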

How the results depend on the processing

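Counts are of the 41 genes, higher and lower in that order. Shares of all genes called are given above for some of these settings only. Among the 14 genes given in full no called change turned its direction. Some that were not called did. In the lower run alone Ctsl in CA3 was -0.06, Gaa in CA3 0.02, Naglu in DG 0.07, Asah1 in CA3 -0.00, Smpd1 in CA1 0.03 and Psap in CA1 0.05, and in the higher run alone Manba in DG was -0.07 and Mcoln1 in CA1 -0.13. Gaa in CA3 was 0.01 with the run as a term and 0.00 by edgeR and DESeq2. Fits without 1 rat gave Gaa in CA3 -0.04 to 0.01, Mcoln1 in CA1 -0.02 to 0.04, Manba in DG 0.00 to 0.05 and Smpd1 in CA1 -0.05 to 0.00. The lower run alone gave 2 and 0 in CA1, 1 and 0 in CA3, 0 and 0 in DG and 4 and 1 on average, with 0 for DG against CA3. The higher run alone gave 6 and 3 in CA1, 10 and 1 in CA3, 5 and 14 in DG and 14 and 8 on average, with 2 for DG against CA3. Without libraries rich in choroid plexus markers, a choice made after seeing the data, there were 4 and 0 in CA1, 5 and 1 in CA3 and 6 and 9 in DG. Leaving out those libraries ended the calls of Npc2 in CA1 and DG and of Cd68 in CA1. For the average and the differences all 8 rats with such a library were left out, 4 young and 4 middle-aged. That gave 2 for DG against CA3 (Ctsf and Asah1, Naglu being lost). A minimum of 50 gave 2 lower in CA1 and DESeq2 2. In CA3, 1 was lower without a filter, with the run as a term and by edgeR. Fits without 1 rat gave 5 to 9 higher and 0 to 3 lower in CA1, 7 to 10 and 1 to 2 in CA3, 4 to 7 and 5 to 11 in DG, 8 to 14 and 4 to 7 on average, 0 to 3 for DG against CA3 and 0 for the other differences. Without the replicate block, that is with libraries taken as independent, no gene was called for DG against CA3, so 0. The rat as a random replicate block gave 13 and 5 on average, where libraries of a rat correlated at 0.107. Positive correlations with microglia markers, 26 over the subregions, numbered 0 in young rats, 17 in middle-aged rats and 19 without middle-aged replicate 10. The cause of these shifts was not tested. Counts near 10 a library limit what can be said of Cd68.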
